A study of Mus musculus with 8 samples.

Results

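The norrin and Wnt receptor genes were taken as *Ndp*, *Fzd4*, *Lrp5*, *Lrp6*, *Tspan12*, *Ctnnb1*, *Apc* and *Axin2*, and every probe set annotated to one of them alone was used. These 8 genes, of 18193 that a probe set names alone, were measured by 17 probe sets, groups of short probes against one transcript. Retinal RNA of adult C57BL/6J mice (postnatal day 80 to 120), kept in dim cyclic light (5 lux, 12 h), was measured on 8 Affymetrix whole-genome mouse expression arrays. There were 2 arrays of mice in normal oxygen (day 0, the control) and 2 each after 3, 7 and 14 days in 75% oxygen. No mutation or transgene is named for any group. By the methods, retinas of males and females were pooled at each time. Whether both arrays of a day hold RNA of different pools is not given in the sources used here, and p-values then measure only the spread between arrays, which may be technical.

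Norrin, encoded by *Ndp*, is a secreted protein that is not a Wnt but uses a Wnt receptor. In the retina it is made largely by Müller glia and reaches the endothelium of the vessels, where it binds Frizzled 4 (*Fzd4*) together with the co-receptor LRP5 (or its relative LRP6), and the tetraspanin *Tspan12* strengthens the response to it. The receptor then holds back the complex in which APC and axin lead β-catenin (*Ctnnb1*) to its destruction, and β-catenin enters the nucleus and switches on target genes such as *Axin2*. The pathway is known for forming the deep retinal vessels and keeping the blood-retina barrier, and loss of norrin, Frizzled 4, LRP5 or TSPAN12 in people leaves the peripheral retina poorly vascularized.

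The RefSeq promoters of the ligand, its receptor and the transducer are shown because their base composition differs while their transcripts were measured on the same arrays. Windows were held for 5 of the 8 genes, and the 3 that begin at the first base of their gene are printed, as the 250 bases before the start, 5′ to 3′ on the strand of the gene in build GRCm38.p6. Capitals mark the CG dinucleotide. *Ndp* lies on the minus strand (chrX:16911775-16912024), *Fzd4* on the plus strand (chr7:89404116-89404365) and *Ctnnb1* on the plus strand (chr9:120933150-120933399).
Ndp: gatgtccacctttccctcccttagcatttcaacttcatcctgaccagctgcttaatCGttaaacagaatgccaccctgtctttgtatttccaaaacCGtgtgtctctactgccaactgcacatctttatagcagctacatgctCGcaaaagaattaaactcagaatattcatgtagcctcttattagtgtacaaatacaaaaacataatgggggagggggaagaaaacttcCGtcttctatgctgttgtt
Fzd4: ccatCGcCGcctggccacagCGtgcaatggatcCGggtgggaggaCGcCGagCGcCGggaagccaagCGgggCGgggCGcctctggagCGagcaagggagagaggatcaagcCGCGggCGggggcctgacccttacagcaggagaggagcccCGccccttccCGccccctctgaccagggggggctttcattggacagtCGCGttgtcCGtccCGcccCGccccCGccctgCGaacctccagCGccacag
Ctnnb1: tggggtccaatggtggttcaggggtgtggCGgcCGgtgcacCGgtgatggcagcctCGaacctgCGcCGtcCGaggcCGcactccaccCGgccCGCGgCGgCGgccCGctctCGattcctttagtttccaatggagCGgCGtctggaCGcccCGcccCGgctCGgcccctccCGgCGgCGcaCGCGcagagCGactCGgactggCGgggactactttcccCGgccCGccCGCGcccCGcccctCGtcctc
The *Ndp* window held 4 CG dinucleotides and 41.2% G and C, that of *Fzd4* 25 and 72.8%, and that of *Ctnnb1* 35 and 74.8%. The median over the 32851 promoter windows was 6 CG dinucleotides and 52.4%, and 92.1% of the windows held at least 1 CG. The core CTTTG of the sites bound by TCF and LEF, the partners of β-catenin, was searched on both strands (CTTTG or CAAAG) and stood once in the *Ndp* window, at position -171 from the start. It was not matched in the windows of *Fzd4* and *Ctnnb1*, which says only that these letters are absent there, and 48.6% of all windows held a match. Among the windows not printed, that of *Tspan12* held 1 match, at -116 from its own start. Those of *Axin2* and a further one of *Ctnnb1* held no match.

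The deposited log2 values had each probe set centred on its median over the 8 arrays. They give differences between arrays and no level, so neither the order of the genes by abundance nor the tissue label could be checked against markers. The array nearest to day 14 replicate 1 was day 14 replicate 2, but at no time were the 2 arrays each other's nearest. Over all probe sets the second replicates of day 3 and day 14, as labelled, were the most alike of the 28 pairs (Pearson's r = 0.74, across probe sets), and the pairs of one day ranked 5 (day 14), 8 (day 0), 9 (day 7) and 14 (day 3), with r of 0.18 to -0.13. This order goes against the labels, and an array of day 3 and one of day 14 may have been exchanged between sample and label, which was not tested. Every mean of day 3 and of day 14, and every order of their arrays against the controls, rests on the labels as given. On these 2 arrays the 3′ minus 5′ difference of *Gapdh*, a control for the length of the labelled RNA, was 1.19 and 1.43, against -0.32 to 0.12 on the others. The median of 10 gliosis genes was 1.34 and 1.22 there and -0.37 to 0.25 elsewhere, and one of them, *Gfap*, the filament of reactive glia, stood at 2.56 and 2.18 against -1.09 to 0.36. The median of 14 microglia and macrophage genes was 1.21 and 1.14 against -0.26 to 0.20. The 13 rod genes had medians of -0.26 and -0.35 on them, against -0.30 to 0.10. The 14 lens genes (medians from -2.09 to 3.49), the 10 cornea genes (-1.04 to 2.02) and the 8 genes of the pigment epithelium (-0.36 to 1.69) varied between arrays in other orders. The controls differed in the lens median (-1.81 and 1.81). At day 3 and at day 7, 9 of 10 cornea genes had both arrays below both controls, against 16.1% and 13.1% of all genes. At day 14, 2 did (15.2%). Of the lens genes, 11 of 14 had both above at day 7 (12.1%). The part of these tissues in the member values was not tested. In bulk RNA, fewer cells of a type and less RNA per cell cannot be told apart.

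*Ndp*, the ligand, was the member with the largest positive difference from control at day 3. Its one probe set (1449251_at) gave -0.36 and -0.21 for the controls, 0.80 and 0.57 for day 3, -0.01 and -0.28 for day 7, and 0.01 and 0.47 for day 14 (centred log2 values, replicate 1 first). Both arrays of day 3 lay above every other array, both arrays of day 14 lay above both controls, and those of day 7 overlapped with the controls. This order of the days rests on the labels of day 3 replicate 2 (0.57) and of the day 14 arrays (0.01 and 0.47) as given. The log2 difference from day 0 was 0.97 ± 0.20 at day 3 (limma's standard error, n = 2 arrays a group), 0.14 ± 0.20 at day 7 and 0.53 ± 0.20 at day 14. The adjusted p in limma was 0.471, 1 and 0.580, so none of the 3 passed the threshold of 0.05. Leaving out 1 array at a time gave 0.86 to 1.09 at day 3 and 0.30 to 0.76 at day 14. The array of day 14 that stands apart carried much of the later difference, which was 0.30 without it, whereas leaving out its counterpart of day 3 gave 1.09. Between times, day 7 stood 0.84 ± 0.20 below day 3 in *Ndp* (log2 -0.84, adjusted p = 0.347 in limma).

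The 13 markers of Müller glia, the main source of norrin, lay the other way at day 3. All 13 had a negative difference from control (median -0.37, against 0.06 over all genes), and 12 of 13 after a further quantile normalization or without the 2 arrays that stand apart, and 8 had both arrays below both controls, against 16.1% of all genes. Their median by array was -0.36 and -0.30 at day 3, against 0.07 and 0.03 in the controls and 0.19 and 0.25 at day 7. At day 14, 12 of 13 were lower (median -0.24), and 11 of 13 (-0.08) without the 2 arrays that stand apart. Among them were the glutamate transporter *Slc1a3* (-0.35 ± 0.15, adjusted p = 0.622 in limma) and *Dkk3*, a secreted glycoprotein (-0.74 ± 0.38, adjusted p = 0.629), whose arrays of day 14 overlapped with the controls. None of the 13 passed adjusted p at any time, and the part of these cells in the *Ndp* values was not tested. The day 3 fall was not particular to Müller glia markers. Of the 13 rod genes, 12 were also lower at day 3 (median -0.38), and 11 had both arrays below both controls, against the same 16.1%. The 10 gliosis genes were higher at day 3 in 10 of 10 (median 1.29), and in 8 of 10 (0.17) without the second replicate of day 3. The second replicates of day 3 and day 14, with the highest gliosis medians, had the *Ndp* values next below the highest (0.57 and 0.47), and the first replicate of day 3, with a gliosis median of -0.19, had the highest (0.80). The part of gliosis in the *Ndp* values was not tested.

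**Figure D1:**
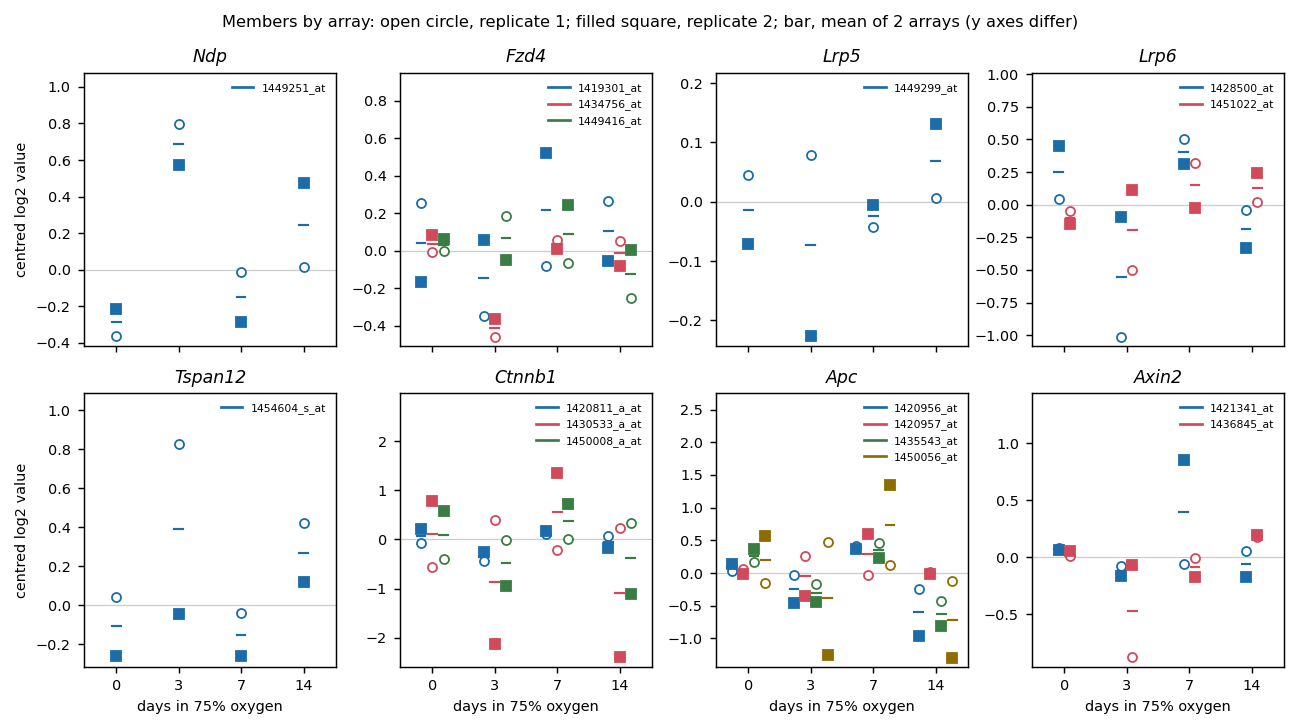
Centred log2 value of each probe set of the 8 genes on the 8 arrays, by days in 75% oxygen (open circles, replicate 1; filled squares, replicate 2; bars, mean of 2 arrays; colors, probe sets; the y axes differ between genes). With the labels as given, *Ndp* at day 3 (0.80 and 0.57) lies above all its other arrays. For *Ctnnb1*, 2 of the 3 probe sets are lowest on the second replicates of day 3 and day 14.

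*Tspan12*, the tetraspanin of the norrin receptor, had its highest value on 1 array. Its probe set (1454604_s_at) stood at 0.04 and -0.26 in the controls, 0.83 and -0.04 at day 3, -0.04 and -0.26 at day 7, then 0.42 and 0.12 at day 14. The day 3 arrays overlapped with the controls, since the second replicate lay between them. Both day 14 arrays lay above both controls, by 0.38 ± 0.30 between the means (adjusted p = 0.740 in limma). This difference was 0.23 without the second control or without the first replicate of day 14, up to 0.53 with other arrays left out, and 0.57 after a further quantile normalization.

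*Fzd4*, the receptor, was measured by 3 probe sets whose values differed. The probe set 1434756_at stood at -0.01 and 0.08 in the controls, -0.46 and -0.36 at day 3, 0.06 and 0.01 at day 7, then 0.05 and -0.08 at day 14. With the labels as given, both arrays of day 3 lay below all the others, with a log2 difference of -0.45 ± 0.13 (adjusted p = 0.471 in limma). The other 2 probe sets of *Fzd4*, 1419301_at and 1449416_at, had day 3 arrays that overlapped with the controls. They stood at -0.35 and 0.05 and at 0.19 and -0.05 at day 3, against 0.25 and -0.17 and -0.003 and 0.06 in the controls. The mean of the 3 probe sets differed by -0.20 ± 0.14 at day 3 (adjusted p = 0.587 in limma). At day 7 and day 14 the arrays of all 3 probe sets overlapped with the controls.

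The co-receptors differed from each other in their spread. *Lrp5*, measured by 1449299_at, had the smallest SD of the 17 probe sets over the 8 arrays (0.11), between -0.23 (second replicate of day 3) and 0.13 (second replicate of day 14). Its arrays overlapped with the controls at every time, with log2 differences of -0.06, -0.01 and 0.08 (each ± 0.15). *Lrp6* had its minimum on the first replicate of day 3 by both of its probe sets, at -1.01 for 1428500_at and -0.50 for 1451022_at. For 1428500_at the controls stood at 0.04 and 0.45, and both arrays lay below them at day 3 (-1.01 and -0.09) and at day 14 (-0.04 and -0.33). The log2 differences of 1428500_at were -0.80 ± 0.31 at day 3 (adjusted p = 0.474 in limma) and -0.43 ± 0.31 at day 14 (0.720). The day 3 value rested largely on 1 array, since omitting the first replicate left -0.34 and omitting the second left -1.26. The day 14 value was -0.23 without the second control. The other probe set of *Lrp6*, 1451022_at, had both arrays above both controls at day 7 (0.25 ± 0.23) and day 14 (0.23 ± 0.23). Single arrays set much of this, since the day 7 value was 0.08 without its first replicate and 0.42 without its second, and the day 14 value was 0.12 without its second replicate. The 2 probe sets of *Lrp6* thus pointed in opposite directions at day 14, and their mean differed by -0.10 ± 0.24 (adjusted p = 0.900 in limma).

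Endothelial cells carry this receptor complex. Of their 14 markers measured here, 9 were higher and 5 lower at day 3 (median 0.02), and 10 were higher and 4 lower at day 14 (median 0.12, against 0.08 over all genes). The day 3 median was -0.01 with array medians subtracted, and without the 2 arrays that stand apart the medians were -0.17 (5 higher) and 0.02 (7 higher). The 2 with the smallest p at day 14 were *Flt1*, a VEGF receptor, at -0.45 ± 0.17 (adjusted p = 0.617 in limma), and *Eng*, a co-receptor for TGF-β and BMP, at 0.35 ± 0.19 (0.638). The median of the list by array ranged from -0.21 (day 7 replicate 2) to 0.13 (day 3 replicate 2), and its part in the receptor values was not tested.

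*Ctnnb1*, the transducer, gave 2 patterns on its 3 probe sets. The probe set 1430533_a_at had the largest SD of the 17 (1.34) and stood at -0.57 and 0.78 in the controls, 0.40 and -2.14 at day 3, -0.22 and 1.34 at day 7, then 0.22 and -2.40 at day 14. Its 2 lowest arrays were the 2 that stand apart, and the first replicates of day 3 and day 14 lay between the controls. The log2 differences of 1430533_a_at were -0.98 ± 1.15 at day 3 and -1.20 ± 1.15 at day 14, smaller than or close to their standard errors (adjusted p = 0.781 and 0.784 in limma). The probe set 1450008_a_at was also lowest there, with -0.96 and -1.11 on the 2 arrays and -0.40 to 0.72 on the other 6. The last of them, 1420811_a_at, stood at -0.06 and 0.22 in the controls and at -0.44 and -0.27 at day 3. With the labels as given, both day 3 arrays lay below the controls, with a difference of -0.43 ± 0.16 (adjusted p = 0.472 in limma). At day 14 this probe set stood at 0.06 and -0.17, overlapping with the controls.

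*Apc*, the scaffold that holds β-catenin in the destruction complex, had the largest negative difference of the members whose arrays did not overlap with the controls. The probe set 1435543_at stood at 0.17 and 0.36 in the controls, -0.17 and -0.44 at day 3, 0.46 and 0.23 at day 7, then -0.43 and -0.81 at day 14. Both arrays of day 3 and of day 14 lay below both controls and below both arrays of day 7. The log2 difference was -0.57 ± 0.19 at day 3 (adjusted p = 0.471 in limma), 0.08 ± 0.19 at day 7, where the arrays overlapped with the controls, and -0.89 ± 0.19 at day 14 (0.412). The day 14 difference was -0.70 when its second replicate was omitted, and it ran from -1.08 to -0.70 over all arrays left out in turn.

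The probe set 1420956_at of *Apc* was likewise below the controls at day 3 and day 14, at 0.03 and 0.14 in the controls, -0.03 and -0.46 at day 3, 0.42 and 0.36 at day 7, then -0.24 and -0.97 at day 14. Its difference was -0.69 ± 0.26 at day 14 (adjusted p = 0.579 in limma) and -0.33 without day 14 replicate 2, or -1.05 without replicate 1. Its day 3 difference, -0.34 ± 0.26, was -0.12 without day 3 replicate 2 and -0.55 without replicate 1. Another, 1450056_at, followed the 2 arrays that stand apart, at -1.26 on day 3 replicate 2 and -1.30 on day 14 replicate 2 against -0.16 to 1.34 on the others. The fourth, 1420957_at, stood at 0.06 and -0.02 in the controls and at 0.01 and -0.01 at day 14, a difference of -0.02 ± 0.27. The 4 probe sets of *Apc* therefore ranged from -0.91 to -0.02 at day 14, and their mean differed by -0.63 ± 0.30 (adjusted p = 0.627 in limma).

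The 3′ minus 5′ difference of *Gapdh* moved with several of these probe sets. Over the 8 arrays its Pearson's r was -0.96 with 1430533_a_at and -0.90 with 1450008_a_at of *Ctnnb1*, and -0.93, -0.85, -0.73 and -0.65 with the *Apc* probe sets 1450056_at, 1420956_at, 1435543_at and 1420957_at. These are descriptions over 8 arrays, of which 2 set most of the range of *Gapdh*. With 1420811_a_at of *Ctnnb1* r was -0.38, and with the single probe sets of *Ndp*, *Tspan12* and *Lrp5* it was 0.48, -0.10 and -0.13. The part of the RNA ends in these values was not tested.

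**Figure D2:**
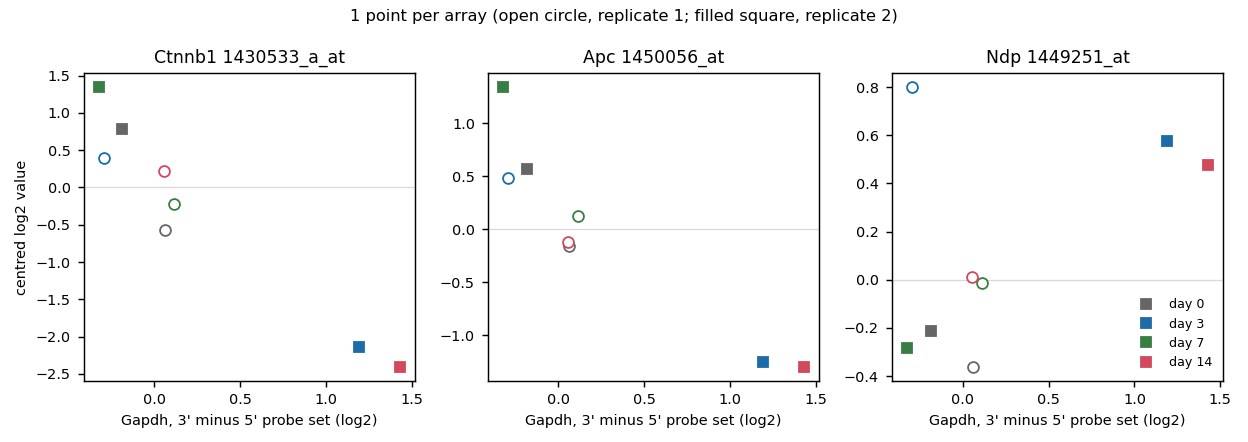
Centred log2 values (y) against the 3′ minus 5′ difference of *Gapdh* on the same array (x, log2), 1 point per array. Open circles are replicate 1, filled squares replicate 2, and colors days. The probe set of largest SD is shown for *Ctnnb1* (1430533_a_at) and *Apc* (1450056_at), with the single one of *Ndp*. Within *Ctnnb1* and *Apc* these also had the strongest r with *Gapdh* (-0.96 and -0.93), against -0.38 for 1420811_a_at and -0.65 for 1420957_at. The second replicates of day 3 and day 14 stand alone at the right (1.19 and 1.43), where *Ctnnb1* (-2.14 and -2.40) and *Apc* (-1.26 and -1.30) were lowest, while the highest *Ndp* value (0.80) was on day 3 replicate 1, at the left.

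*Axin2*, a feedback inhibitor and a standard target of β-catenin, was lower than the controls on all day 3 arrays by both of its probe sets. The probe set 1436845_at stood at 0.01 and 0.06 in the controls, -0.87 and -0.07 at day 3, -0.01 and -0.17 at day 7, then 0.18 and 0.20 at day 14. It thus lay below the controls at day 3 and day 7 and above them at day 14, with log2 differences of -0.50 ± 0.25, -0.12 ± 0.25 and 0.16 ± 0.25 (adjusted p = 0.529, 1 and 0.873 in limma). The day 3 value of -0.87 was on replicate 1, and without that array the difference was -0.10, against -0.91 without replicate 2. The day 7 difference was -0.04 without its second replicate and -0.21 without its first. The other probe set of *Axin2*, 1421341_at, stood at 0.08 and 0.06 in the controls, -0.08 and -0.17 at day 3, -0.06 and 0.86 at day 7, then 0.06 and -0.17 at day 14. Only the second replicate of day 7 was above both controls, and its day 14 difference was -0.13 ± 0.28, or -0.02 without the second replicate of day 14 and -0.25 without the first. The mean of both differed by -0.35 ± 0.18 at day 3 (adjusted p = 0.492 in limma) and by 0.01 ± 0.18 at day 14.

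Over all 17 probe sets, the number past an adjusted p of 0.05 in limma was 0 at day 3, day 7 and day 14 and 0 in the test of any difference among the 4 times. The same test called 0% of all 45037 probe sets in each of these 4 comparisons, with lowest adjusted p of 0.471, 1, 0.386 and 0.507. Its spread is that between arrays of one day as labelled, and on no day were such arrays each other's nearest. A count of 0 therefore does not show that nothing changed. At an unadjusted p under 0.05 the test gave 5 of the 17 at day 3 (10.3% of all probe sets), 0 at day 7 (0.864%) and 3 at day 14 (8.27%). The 5 at day 3 were *Ndp* and 1 probe set each of *Fzd4*, *Lrp6*, *Ctnnb1* and *Apc*, and the 3 at day 14 were *Ndp* and 2 of *Apc*.

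At day 3, 1 of the 17 probe sets had both arrays above both controls (24.7% of all probe sets) and 7 had both below (17.8%). At day 7 these counts were 2 (12.3%) and 1 (12.3%), and at day 14 they were 4 (27.7%) and 4 (18.3%). The median log2 difference of the 17 was -0.34 at day 3, 0.16 at day 7 and -0.13 at day 14, against 0.036, -0.003 and 0.049 over all probe sets. Probe sets of one gene share a transcript and are not independent, and the 3 comparisons share the control arrays. By gene, 6 of the 8 were lower at day 3 (median -0.28), 2 at day 7 and 4 at day 14 (-0.02). Without the 2 arrays that stand apart these were 5 at day 3 (-0.06) and 3 at day 14 (0.04).

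**Figure D3:**
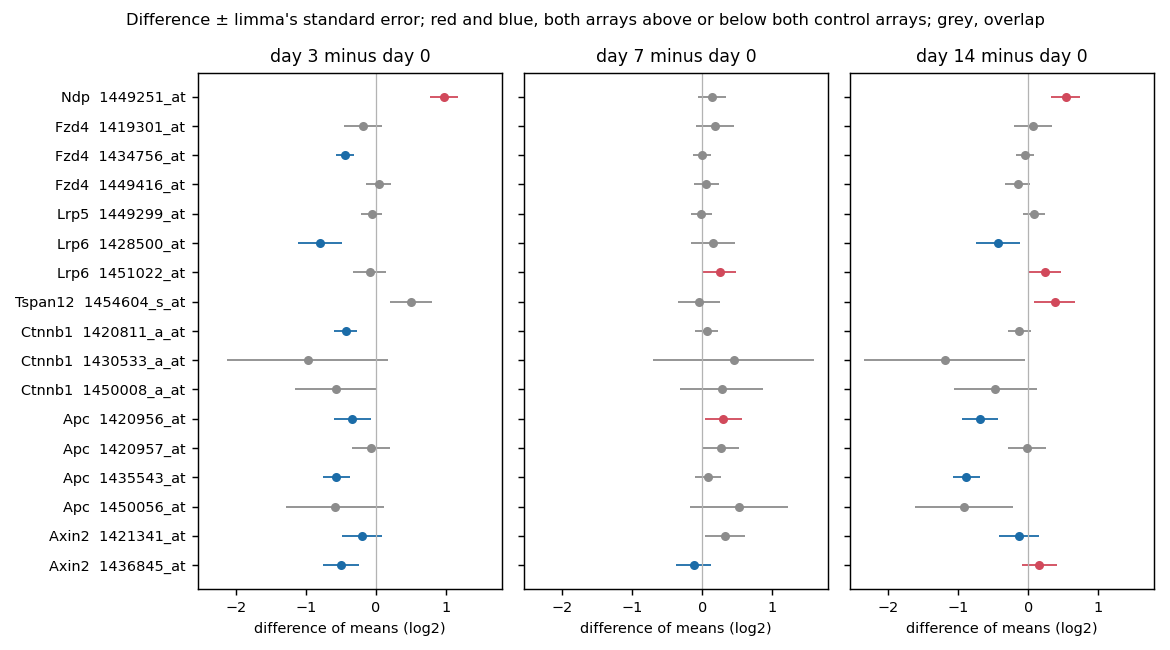
Difference of group means from day 0 (x, log2) for each of the 17 probe sets at 3 times, with limma's standard error (bars; 2 arrays a group). Red and blue points have both arrays above or below both control arrays and grey points overlap. With the labels as given, *Ndp* is red at day 3 (0.97) and day 14 (0.53), and 2 probe sets of *Apc* are blue at both times.

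Other genes of the pathway are given by the mean of their probe sets, and 0 genes of any list passed adjusted p in limma at any time, as did 0 of all 18193 genes. The other Frizzled and Wnt receptors (13 genes) stood near the controls at day 3 (8 higher, 5 lower, median 0.01, but -0.02 and -0.03 under the other scalings) and higher at day 14, in 12 of 13 (median 0.15, against 0.08 over all genes). Both day 14 arrays lay above both controls for 10 of the 13, against 33.5% of all genes. After a further quantile normalization 11 of 13 were higher (median 0.12, against 0.02 over all genes), with array medians subtracted 10 of 13 (0.09), and without the 2 arrays that stand apart 12 of 13 (0.14). The smallest p at day 14 were those of the receptors *Fzd1* (0.31 ± 0.11, adjusted p = 0.615 in limma) and *Fzd2* (0.30 ± 0.13, 0.622). *Fzd1* stood at -0.09 and -0.02 in the controls and at 0.24 and 0.26 at day 14, above all its other arrays.

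Of 21 Wnt ligands and genes for their secretion, 14 were higher at day 3 (median 0.09), 13 at day 7 (0.08) and 19 at day 14 (0.16). Of all 18193 genes, 10770 were higher at day 3 (0.06), 8752 at day 7 (-0.01) and 11652 at day 14 (0.08). With array medians subtracted the medians of the 21 at day 3 and day 14 were 0.05 and 0.11, and without the 2 arrays that stand apart 0.06 and 0.10. The largest difference at day 14 was that of the ligand *Wnt2b* (0.48 ± 0.15, adjusted p = 0.613 in limma), whose arrays stood at 0.27 and 0.29 against -0.03 and -0.36 in the controls. *Wnt9b*, another ligand, differed by 0.24 ± 0.11 (0.627). For the ligands 7 of 21 had both day 14 arrays above both controls, close to the 33.5% of all genes. Of 24 secreted and membrane modulators, 12 were higher at day 3 (median -0.01) and 17 at day 14 (0.10), or 15 (0.05) with array medians subtracted, against a median of 0.08, or 0.02, over all genes. Among them were the decoy *Sfrp4* (0.36 ± 0.15, adjusted p = 0.622 in limma) and the inhibitor *Dkk2* (0.25 ± 0.12, 0.627).

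Of 26 cytoplasmic regulators of β-catenin, 17 were lower at day 3 (median -0.16) and 11 of them had both arrays below both controls, against 16.1% of all genes. At day 14, 17 were also lower (median -0.04, but -0.10 under both other scalings and -0.01 without the 2 arrays that stand apart) and 9 had both arrays below both controls, against 15.2%. *Btrc*, which recognizes phosphorylated β-catenin for ubiquitination, differed by -0.38 ± 0.14 at day 14 (adjusted p = 0.617 in limma), and the casein kinase *Csnk1g1* by -0.37 ± 0.17 (0.627). Of 18 nuclear effectors, 13 were lower at day 3 (median -0.16) and 9 at day 14 (0.01, but -0.13 and -0.04 under the other scalings). Without the 2 arrays that stand apart these medians were -0.34 and -0.06. The coactivator *Ep300* differed by -0.47 ± 0.15 at day 14 (0.613) and *Tcf7l1*, a repressor of the TCF family, by 0.51 ± 0.24 (0.627).

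Of 15 target genes of β-catenin other than *Axin2*, 9 were higher at day 3 (median 0.10), 5 at day 7 (-0.03) and 13 at day 14 (0.14). Of all 18193 genes, 10770, 8752 and 11652 were higher at these times (0.06, -0.01 and 0.08). The day 14 count of the targets was 9 of 15 after a further quantile normalization and 10 with array medians subtracted (median 0.08 in both). Without the 2 arrays that stand apart the day 3 median was -0.06 (7 higher) and that of day 14 was 0.07 (12 higher). *Fosl1*, a part of the AP-1 factor, differed by 0.39 ± 0.16 at day 14 (adjusted p = 0.622 in limma), and *Notum*, an enzyme that inactivates Wnt proteins, by 0.24 ± 0.15 (0.660). Of 13 vessel genes linked to norrin signaling, 7 were higher at day 3 (median 0.02, but -0.02 with array medians subtracted), 6 at day 7 (-0.01, but 0.04 after quantile normalization) and 7 at day 14 (0.10, but 0.05 with array medians subtracted). Some genes stand in more than 1 of these lists. The endothelial factor *Sox7* had 0.40 ± 0.13 at day 14 (0.615) and *Slc38a5*, an amino acid transporter of the barrier, had 0.52 ± 0.21 (0.622). Both lay above both controls at day 14, and *Slc38a5* stood at -0.04 and 0.60 there, the higher value on its second replicate. Of the 13 vessel genes, 5 had both day 14 arrays above both controls and 1 had both below, against 33.5% and 15.2% of all genes.

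**Figure D4:**
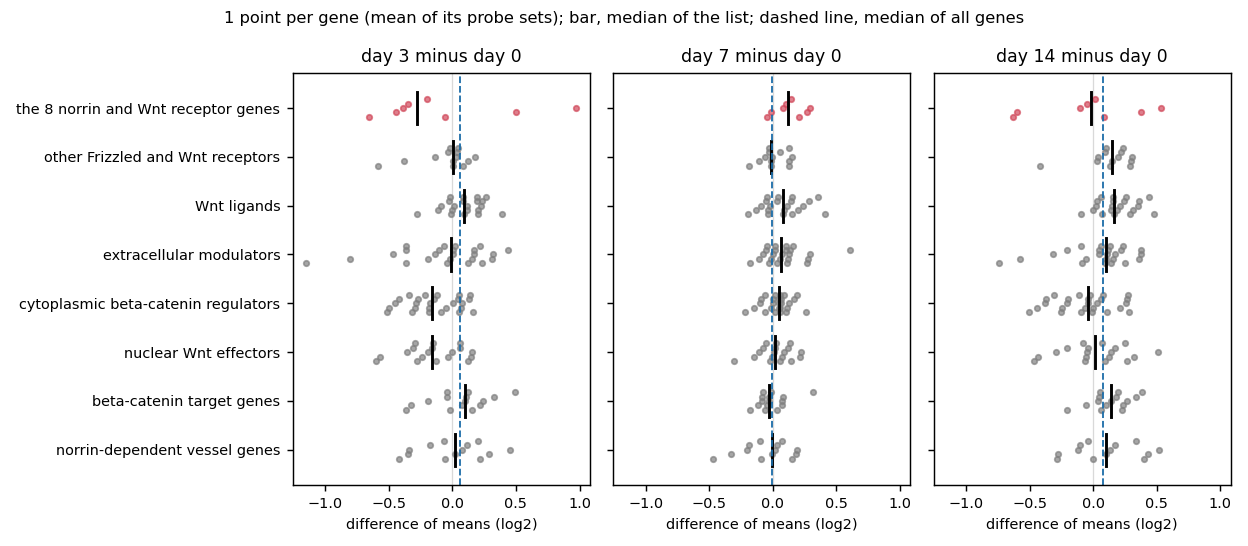
Difference of group means from day 0 (x, log2) of each gene of the pathway lists at 3 times, 1 point per gene (mean of its probe sets). Black bars are list medians and the dashed line is the median of all genes. With the labels as given, *Ndp* (0.97) is the highest of the 8 members at day 3. At day 14 the other Frizzled and Wnt receptors have a median of 0.15 against 0.08 for all genes.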

How the data were processed

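RNA of 8 retinal samples was measured on Affymetrix whole-genome mouse expression arrays, 2 at each of 4 times. The authors deposited log2 values computed by RMA (version not given in the sources used here), and each probe set had been centred on its median over the arrays (0 to within 5e-07). The methods also name MAS5 values, which were not used here. Of 45101 probe sets, 64 controls were set aside and 45037 tested, of which 34945 name 1 gene, 932 several and 9160 none. Array medians ran from -0.02 to 0.03. The number of arrays limits the precision.

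All arrays entered one linear model with a mean for each of the 4 times (limma 3.58.1 under R 4.3.3, moderated by eBayes, 4 residual and 2.71 prior degrees of freedom). Two-sided p-values were adjusted after Benjamini and Hochberg across every probe set tested, or over all genes for gene means. Every probe set of a member was named, with the 2 genes of smallest p at day 14 in each other list (genes of the gliosis, microglia, rod, lens, cornea and pigment epithelium lists are given by medians, with *Gfap* by array) and the 2 whose values were most like those of each member. Members and lists were chosen with earlier results of these data known. The fit was tested on simulated data. Alternatives were other scalings, a replicate block, robust eBayes, the compared groups alone, arrays left out, linear means and gene means. Promoters came from RefSeq (GRCm38.p6), counted in Python 3.11.15.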

Additional observations from a re-analysis of the deposited data

Results flagged for a closer look

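For 1 probe set each of *Apc* and *Axin2*, the arrays of different times lay on opposite sides of both controls. *Apc* (1420956_at) was below the controls on both arrays of day 3 and day 14 and above them on both of day 7. Day 7 minus day 3 was 0.64 ± 0.26 (log2, adjusted p = 0.404 in limma) and day 14 minus day 7 was -0.99 ± 0.26 (0.387). *Axin2* (1436845_at) was below the controls at day 3 and day 7 and above them at day 14. Day 14 minus day 3 was 0.66 ± 0.25 (0.998) and day 14 minus day 7 was 0.28 ± 0.25 (0.701). Neither gene passed in these tests of the difference, and each of the 4 differences compares 2 arrays with 2.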

How the results depend on the processing

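Of 244 recomputed values of the 19 differences whose arrays lay on one side of both controls, 241 kept their direction. The choice of such differences makes this likely. Linear means have no p-value, and none of the other values passed adjusted p = 0.05 in limma. Their adjusted p in limma ran from 0.0922 to 1. The 3 that turned were means of all probe sets of a gene, at 0.10 for *Axin2* at day 7, 0.0122 for *Axin2* at day 14 and -0.10 for *Lrp6* at day 14, whose probe sets point in opposite directions. No time had a probe set past adjusted p (0 each) under each scaling, robust eBayes and the compared groups alone. With 1 array left out the count was 0 at day 3 and day 14, and 0 to 1 at day 7 and among the 4 times. The 1 was a probe set of the lens gene *Crygf*, named after its value was seen, without day 7 replicate 1. With the replicate block it was 0 in each comparison, and *Ndp* at day 3 had an adjusted p of 0.503. Same-numbered arrays did not deviate together throughout (r of -0.40 to 0.55 between days), so the numbers were not taken to pair them. Crossing the numbers of day 3 and day 14, and leaving out day 3 replicate 2 and day 14 replicate 2 together, were chosen after seeing the data and also gave 0. A time left with 1 array borrows its spread from the other times. Without signal levels, dim probe sets could not be told from bright ones.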

Other observations

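The vessel wall also holds pericytes, which sit on the endothelium. Of 8 pericyte markers, 4 were higher and 4 lower at day 3 (median 0.003) and at day 14 (0.08). These medians were -0.08 and -0.05 after a further quantile normalization. *Rgs5*, a regulator of G protein signaling, differed by -0.72 ± 0.30 at day 14 (adjusted p = 0.622 in limma), with 0.10 and 0.11 in the controls and -0.49 and -0.75 at day 14. *Des*, the intermediate filament desmin, differed by 0.29 ± 0.11 (0.617), and its arrays of day 14 (0.16 and 0.15) lay above all the others.

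The probe sets most like those of the members over the 8 arrays are given as a description, since a high r is easily reached over 8 arrays among 34945 probe sets. The *Ndp* values were most like those of *Dnajc5g* (Pearson's r = 0.99) and *Lgr6*, a receptor of R-spondins (0.98). Those of *Tspan12* were most like *Arfip1* (0.99) and *Sec22b* (0.98), those of *Fzd4* (1419301_at) like *Zfp827* (0.98) and *Atp13a3* (0.94), and those of *Lrp5* like *Lims2* and *Ankrd31* (both 0.98). For *Lrp6* (1428500_at) they were *Chfr* and *Wnk1* (both 0.99), for *Ctnnb1* (1430533_a_at) *Hacd3* (0.999) and *Fbxo3* (0.996), for *Apc* (1450056_at) *Nt5e* and *Srpk2* (both 0.995), and for *Axin2* (1436845_at) *Arpc5* and *Wscd1* (both 0.98).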
